A study of Homo sapiens with 60 samples.

Results

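The genes described here are 40 interferon-stimulated genes, a named list of antiviral effectors, sensors and transcription factors, followed in SW1783 cells, an established human astrocytoma line. All 40 were found by symbol in the deposited table of 60675 genes, and 39 of them exceeded 1 CPM (counts scaled to the size of the library) in at least 3 of the 60 libraries and were tested among 14948 genes. RSAD2 was the 1 member not tested, because it passed 1 CPM in 1 library only. Cells were exposed for 24 h to a herbal extract or to vehicle. The high, medium and low doses were 500, 100 and 20 µg/mL for 2 decoctions, Yijin-tang and Soshiho-tang, which are water extracts. They were the same for ethanol extracts of Zizyphi Semen, Longan Arillus and Liriopis seu Ophiopogonis Tuber. The other ethanol extracts had lower doses: Schisandrae Fructus 310, 62 and 12.4 µg/mL, Aucklandiae Radix 160, 32 and 6.4 µg/mL, and Polygalae Radix 30, 6 and 1.2 µg/mL. For these 3 extracts the top dose was set from an inhibitory concentration, per the series' design text. Vehicle cells received DMSO, given as 0.1% in the sample labels and 2% in the design text. Each dose of Yijin-tang, Liriopis, Schisandrae, Longan and Zizyphi had 3 libraries, each dose of Soshiho-tang had 2, each dose of Polygalae and Aucklandiae had 1, and vehicle had 3. Nothing in the labels says whether replicate libraries came from separate cultures, so the p-values below describe variation among these libraries, which may be technical.

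Type I and type III interferons bind receptors that activate the kinases JAK1 and TYK2, and these phosphorylate transcription factors that include STAT2. STAT2 and IRF9 are parts of the complex ISGF3, which binds the interferon-stimulated response element (ISRE) in the promoters of genes such as IFIT1, MX1 and ISG15. Interferon gamma acts instead through the gamma-activated site (GAS), the route by which IRF1 is classically induced. Many of these genes are also transcribed at a low basal level without added interferon, and some, IRF1 among them, respond to NF-kB.

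Total counts ran from 18.73 M to 35.52 M per library, with a median of 25.78 M (M, 1e6). High and low doses of an extract carry the same first part of the library name, while the vehicle libraries form a set of their own, so for vehicle comparisons the set and the treatment cannot be told apart. The cell line was checked against markers fixed with the gene lists. VIM had a median of 4929 CPM and CD44 of 2643 CPM, but the defining astrocyte markers GFAP and AQP4 stayed at or below 0.314 and 0.0869 CPM in all libraries. Of the 12 astroglial and neural stem markers 5 passed the filter on low counts. All 5 fibroblast markers passed it, with medians of 3439 CPM for COL1A1 and 1569 CPM for COL1A2. None of the 6 lymphoid markers and none of the 3 plasmacytoid dendritic markers passed the filter on low counts. The single library of high-dose Polygalae stood apart, with VIM at 644 CPM against 4733 to 4766 CPM in vehicle and COL1A1 at 649 CPM against 3563 to 3723 CPM. Differences here are in RNA from whole cultures, in which fewer cells of a type and less RNA per cell cannot be told apart. The interferons themselves had few counts: of 10 ligand genes only IFNE was tested (median 3.09 CPM). IFNA1 had up to 18 counts (0.635 CPM) and was at 0 in 3 of 60 libraries, IFNB1 and IFNL1 never exceeded 1 count in a library, and IFNG had 0 counts in all 60. A count of 0 allows up to 3 counts in a library, which covers counting error only.

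Promoter sequence was available in RefSeq (GRCh38.p14) for 33 of the 40 members, as 250 bases before to 50 bases after the gene start. The ISRE was searched as GAAANNGAAA on both strands, where N is any base and overlapping matches are allowed. It was found in 20 of the 33 members (60.6%) and in 996 of all 27305 promoters of that length (3.65%). SAMD9L, HERC6, XAF1, RIGI, IRF9 and STAT2, which are also named in the results below, have no match in their windows. The windows below show the match in capitals with 10 bases on each side, 5′ to 3′ on the gene's strand. They cover only some of the members that have a match. For each gene 1 match is shown, and the promoters of IFIT1, IFIT3, OAS3, DDX60, IFI6 and ISG15 hold further matches.
IFIT1, chr10:89392497-89392526, plus strand: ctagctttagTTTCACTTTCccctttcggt
IFIT3, chr10:89327865-89327894, plus strand: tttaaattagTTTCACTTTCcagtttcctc
IFI44, chr1:78649761-78649790, plus strand: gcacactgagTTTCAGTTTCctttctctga
MX1, chr21:41420559-41420588, plus strand: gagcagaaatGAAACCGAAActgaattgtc
DDX60, chr4:168318786-168318815, minus strand: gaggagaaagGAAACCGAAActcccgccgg
OAS3, chr12:112938321-112938350, plus strand: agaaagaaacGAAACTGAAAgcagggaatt
ISG15, chr1:1013380-1013409, plus strand: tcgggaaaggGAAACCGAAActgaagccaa
IFI6, chr1:27672288-27672317, minus strand: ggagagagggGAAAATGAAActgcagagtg
The matches in IFIT1, IFIT3 and ISG15 start at positions -116, -122 and -107 from the gene start. ISG15 holds a second match that overlaps this one, from -113. IRF1 has no ISRE match in its window but has one GAS match (TTCNNNGAA, in 24.2% of matched members and 7.88% of all promoters) and one match to the NF-kB consensus (21.2% and 10.8%), shown here with the match in capitals because IRF1 was the member that rose with both decoctions.
IRF1 GAS, chr5:132490879-132490907, minus strand: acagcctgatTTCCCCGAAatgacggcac
IRF1 NF-kB, chr5:132490804-132490833, minus strand: ggccagggctGGGGAATCCCgctaagtgtt

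Levels of the members differed widely in cells at the low dose. Per kilobase of exon, and as the median over the 6 replicated low-dose groups, BST2, a membrane protein that tethers budding virions, was highest at 53.2 CPM per kb (49.7 to 54.9 over the groups). IFI6, a mitochondrial and endoplasmic reticulum protein, followed at 36.1 CPM per kb, and the ubiquitin-like modifier ISG15 at 20.6 CPM per kb. The ISG15-conjugating enzyme UBE2L6 stood at 18.8 CPM per kb, and its range of 18.1 to 20.2 overlapped that of ISG15 (19.3 to 23.5). The lowest were OAS1 at 0.163, ISG20 at 0.13, CMPK2 at 0.128 and RSAD2 at 0.0543 CPM per kb, and their order is not resolved, since the ranges of OAS1 (0.116 to 0.265), ISG20 (0.118 to 0.139) and CMPK2 (0.0931 to 0.143) overlap and that of RSAD2 (0.0293 to 0.099) overlaps CMPK2. On this scale the antiviral classics IFIT1 (2.46), IFIT2 (1.65) and MX1 (1.16) lay in the lower part of the list. The exonic length was fixed for each gene, such as 1119 bases for BST2, 7363 for ISG20 and 8616 for MX1. Whether these lengths match the transcripts made in these cells was not tested. The order of the genes depends on them, and the ranges over the groups do not cover this. Vehicle libraries gave 49.3 CPM per kb for BST2 and 2.18 for IFIT1.

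At the high dose, members were called in opposite directions in different extracts. Yijin-tang raised 19 of 39 members and lowered 0, Schisandrae lowered 27 and raised 2, Zizyphi lowered 9 and raised 0, and Soshiho-tang raised 3 and lowered 2. Liriopis and Longan gave 0 calls. A call is an adjusted p under 0.05 in edgeR's quasi-likelihood test of the high against the low dose, adjusted over all 14948 genes by Benjamini-Hochberg. The share of all tested genes called was 8.79% for Yijin-tang (4.48% higher, 4.31% lower), 22.5% for Soshiho-tang (11.7% higher, 10.8% lower), 52.4% for Schisandrae (25.8% higher, 26.6% lower), 7.31% for Zizyphi (2.45% higher, 4.86% lower), 1.26% for Longan (0.482% higher, 0.783% lower) and 0% for Liriopis. The median log2 fold change of the 39 members was 0.40, -0.04, -0.52, -0.23, 0.08 and -0.01 in that order, while the median over all genes lay between -0.0034 and 0.0005 in each.

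**Figure D1:**
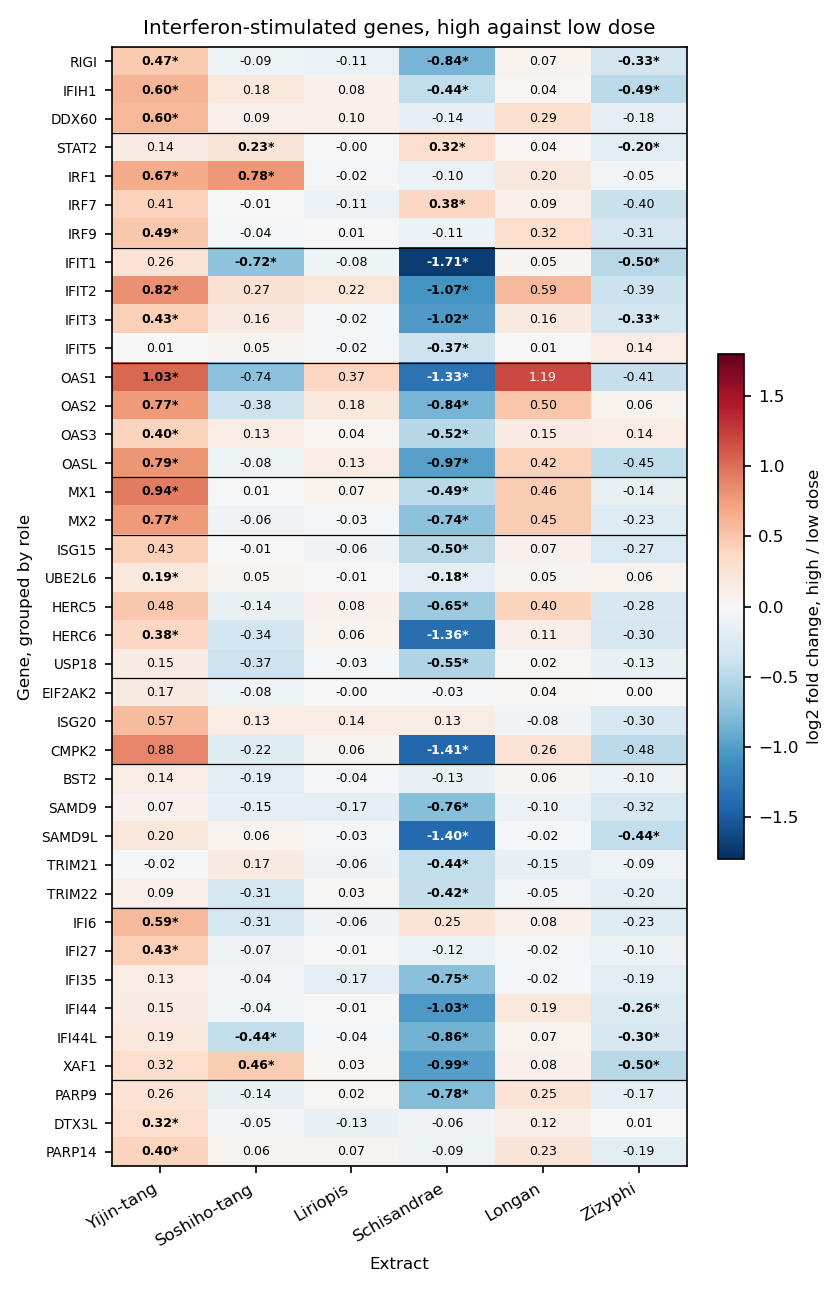
Log2 fold change of the 39 tested interferon-stimulated genes (rows, grouped by role) at the high against the low dose of 6 extracts (columns), with an asterisk where edgeR's adjusted p was under 0.05. The Yijin-tang column is red in 38 of 39 rows, the Schisandrae column is blue in 35 and the Zizyphi column in 33.

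With Yijin-tang, a decoction, the rise was broad. In 38 of 39 members the log2 fold change was positive (range -0.02 to 1.03), and in 33 every high-dose library lay above every low-dose library, a pattern seen in 16% of all tested genes. All 3 sensors passed, as did all 4 OAS genes and both MX genes. Of the 4 IFIT genes 2 passed, and of the 5 restriction factors (BST2, SAMD9, SAMD9L, TRIM21, TRIM22) 0 passed; the difference between roles was not tested.
MX1, a dynamin-like GTPase that traps viral nucleocapsids, measured 7.97, 10.3 and 8.88 CPM at the low dose, 10.7, 9.43 and 10.4 CPM at the medium dose, and 22.0, 14.4 and 16.4 CPM at the high dose. The 3 high-dose libraries stood clear of the other 6, with a log2 fold change against low of 0.94 ± 0.18 (SE; edgeR adjusted p = 0.000221). Its paralogue MX2 rose by 0.77 (edgeR adjusted p = 0.00306), from 3.91, 4.37 and 4.42 CPM to 8.82, 5.70 and 7.30 CPM.
OASL, an oligoadenylate synthetase-like protein that enhances RIG-I signalling, measured 6.97, 8.46 and 8.24 CPM at the low and 16.5, 11.5 and 13.3 CPM at the high dose (0.79 ± 0.17; edgeR adjusted p = 0.00091). The enzymes OAS2 and OAS3, which make the 2′-5′ oligoadenylates that activate RNase L, rose by 0.77 and 0.40 on the log2 scale. In OAS2 the low-dose libraries had 6.92, 8.14 and 7.03 CPM and the high-dose libraries 15.35, 10.50 and 11.999 CPM. OAS1 rose by 1.03, the largest fold change of the list, but from levels of 0.525 to 1.25 CPM.
IFIT2, which binds viral RNA together with its relatives, went from 5.20, 6.08 and 5.67 CPM to 11.6, 8.94 and 9.62 CPM (0.82 ± 0.19; edgeR adjusted p = 0.00232). IFIT3 rose by 0.43. IFIT1 was 8.92, 10.6 and 10.4 CPM at the low and 14.2, 10.7 and 11.2 CPM at the high dose, so that the lowest high-dose library barely exceeded the highest low-dose one, and it was not called (0.26 ± 0.11; edgeR adjusted p = 0.155).

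Among the sensors, RIGI, the cytosolic receptor for 5′-triphosphate RNA, rose from 12.2, 11.5 and 11.4 CPM to 16.6, 16.3 and 15.8 CPM with Yijin-tang (0.47 ± 0.09; edgeR adjusted p = 0.000435). IFIH1 (MDA5, the receptor for long double-stranded RNA) rose by 0.60 from a mean of 3.12 CPM, and the helicase DDX60 by 0.60, from 13.3, 14.3 and 14.4 CPM to 21.6, 19.4 and 22.8 CPM. Of the 4 transcription factors, IRF1 changed most evenly: 24.3, 24.5 and 23.7 CPM at the low, 29.7, 26.8 and 27.9 CPM at the medium and 39.7, 38.0 and 37.7 CPM at the high dose. The groups did not overlap at any step, and the log2 fold change of high against low was 0.67 ± 0.06 (edgeR adjusted p = 1.81e-10). IRF9, the DNA-binding part of ISGF3, rose by 0.49 (edgeR adjusted p = 0.00135), from 15.1, 19.2 and 18.9 CPM to 27.4, 23.2 and 24.8 CPM. STAT2 (0.14; edgeR adjusted p = 0.177) and IRF7, the factor that amplifies interferon alpha transcription (0.41; edgeR adjusted p = 0.0709), were not called. ISG15 measured 17.3, 19.3 and 18.3 CPM at the low and 25.2, 25.0 and 24.2 CPM at the high dose; the groups did not overlap, but its adjusted p in edgeR was 0.0573 (0.0487 in DESeq2). IFI6 rose by 0.59 ± 0.16 (edgeR adjusted p = 0.015), from 27.5, 33.1 and 28.2 CPM to 48.6, 45.1 and 40.3 CPM, a call that was lost without high-dose replicate 1 (adjusted p = 0.0721), low-dose replicate 1 (0.0765) or low-dose replicate 3 (0.0729). Of the remaining members, IFI27, PARP14, DTX3L, HERC6 and UBE2L6 also rose, by 0.43, 0.40, 0.32, 0.38 and 0.19. DTX3L, a ubiquitin ligase, and its partner PARP9 are transcribed from opposite strands of chromosome 3 over overlapping intervals (DTX3L 122564238 to 122575203, PARP9 122527924 to 122564577, GENCODE 29), and the strand setting of the counting was not given in the sources used here. High-dose replicate 1 gave the highest of the Yijin-tang values for MX1, OASL and IFIT2, and 13 members passed without it.

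Beside this rise, 17 of 19 tested NF-kB response genes rose with Yijin-tang (median 1.62), and 5 markers of the cell type lists fell, among them SOX9 by 0.38 and SLC1A3 by 0.34 on the log2 scale. The summed level of the 8 myeloid markers was 216 to 228 CPM at the low dose and 232 to 256 CPM at the high dose. Of these 8 markers 3 passed the filter on low counts, and CD68, with a median of 208 CPM over all libraries, held most of the sum. The summed lymphoid markers did not exceed 0.0378 CPM. The part of these in the rise of the interferon-stimulated genes was not tested.

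**Figure D2:**
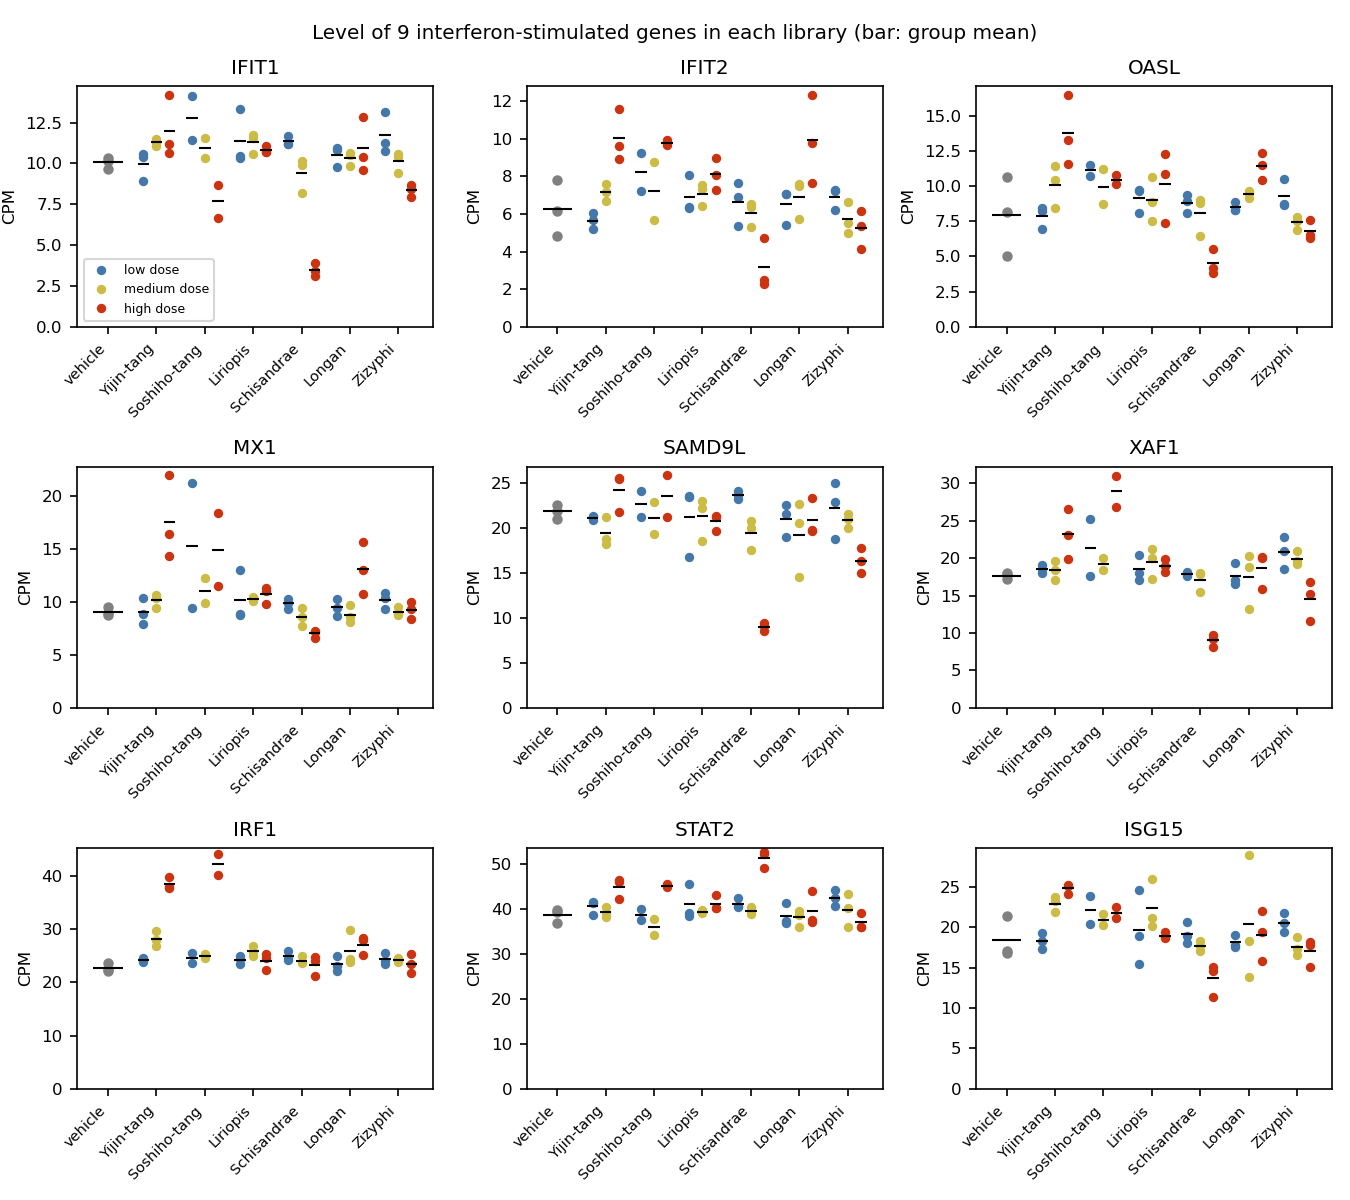
CPM of 9 members in each library (dots) with the group mean (bar), for vehicle and for the low (blue), medium (yellow) and high (red) dose of the 6 replicated extracts; every vertical axis starts at 0. At the high dose of Schisandrae IFIT1 lies under 4 CPM and SAMD9L under 10 CPM, while IRF1 stands at 37.7 to 44.1 CPM at the high dose of both decoctions.

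Soshiho-tang, the other decoction, at the same doses and in the same library set, gave mixed signs: 15 members had a positive and 24 a negative log2 fold change. The 5 calls ran both ways. IRF1 rose from 23.7 and 25.4 CPM to 40.2 and 44.1 CPM (0.78 ± 0.08; edgeR adjusted p = 1.55e-10). IFIT1 fell from 14.2 and 11.4 CPM to 6.67 and 8.67 CPM (-0.72 ± 0.14; edgeR adjusted p = 6.56e-05). Neither pair of libraries overlapped.
XAF1, a pro-apoptotic partner of XIAP, rose by 0.46, STAT2 rose by 0.23, and IFI44L fell by 0.44, each resting on 2 libraries a group. XAF1 measured 25.3 and 17.6 CPM at the low and 26.8 and 31.0 CPM at the high dose, and IFI44L 43.4 and 33.3 CPM against 25.6 and 30.5 CPM. STAT2 measured 39.99 and 37.5 CPM against 44.9 and 45.6 CPM. IRF7, IRF9, RIGI, ISG15 and IFI6 were not called (-0.01, -0.04, -0.09, -0.01 and -0.31). The XAF1 call was lost without high-dose replicate 3 (edgeR adjusted p = 0.21) or low-dose replicate 3 (0.532), and that of IFI44L without high-dose replicate 2 (0.119) or low-dose replicate 2 (0.229). STAT2 was lost without high-dose replicate 2 (0.0847), high-dose replicate 3 (0.133) or low-dose replicate 3 (0.257), and 3 members passed without high-dose replicate 2.
The 2 low-dose libraries differed: MX1 was 21.3 CPM in replicate 2 and 9.40 CPM in replicate 3, and OAS2 was 13.7 and 7.11 CPM. In the median over the 39 members, low-dose replicate 2 lay 0.30 above the centre of the low-dose and vehicle libraries on the log2 scale, and the other 16 low-dose libraries of the replicated extracts lay between -0.11 and 0.11. With Soshiho-tang the summed fibroblast markers went from 4879 to 4996 CPM at the low dose to 2010 to 2067 CPM at the high dose, with COL1A1 falling by 1.25. The summed myeloid markers went from 206 to 213 CPM to 224 to 240 CPM although PTPRC fell by 0.63, and the astroglial sum overlapped (7644 to 7748 CPM and 7653 to 7857 CPM) although SLC1A3 fell by 0.85. In the same comparison 16 of 19 NF-kB response genes rose (median 1.37); their part was not tested.

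The difference between the decoctions was tested directly. The high-against-low change was larger with Yijin-tang than with Soshiho-tang in 11 of 39 members and smaller in 0, against 11.7% of all tested genes called in either direction. The members were OAS1 (difference 1.77 ± 0.49), OAS2 (1.14 ± 0.28), IFIT1 (0.98 ± 0.17), MX1 (0.93 ± 0.28), IFI6 (0.90 ± 0.26), OASL, HERC6, IFI44L, RIGI, IRF9 and DDX60. IRF1 was not among them, with a difference of -0.11 ± 0.10 (edgeR adjusted p = 0.607). Without Soshiho-tang low-dose replicate 2 only 1 member passed, and without Soshiho-tang high-dose replicate 2 the number was 4.

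Schisandrae Fructus, the fruit of a magnolia vine, gave the lowest median of the replicated extracts. Of 39 members 35 had a negative log2 fold change, and in 28 every high-dose library lay below every low-dose library, against 30.6% of all tested genes. All 4 IFIT genes, all 4 OAS genes, both MX genes and all 5 genes of the ISG15 system fell.
IFIT1 measured 11.7, 11.2 and 11.2 CPM at the low dose, 10.2, 8.20 and 9.91 CPM at the medium dose and 3.43, 3.09 and 3.93 CPM at the high dose. The 3 groups did not overlap, and high against low gave -1.71 ± 0.12 (edgeR adjusted p = 3.16e-15). IFIT2 (-1.07), IFIT3 (-1.02) and IFIT5 (-0.37) fell as well. IFIT3 went from 22.6, 23.8 and 24.1 CPM to 11.0, 10.3 and 13.4 CPM; in IFIT2 one high-dose library, at 4.73 CPM, came close to the lowest low-dose value of 5.35 CPM.
SAMD9L, a restriction factor that limits translation, fell from 24.1, 23.2 and 23.7 CPM to 9.09, 9.38 and 8.56 CPM (-1.40 ± 0.12; edgeR adjusted p = 1.60e-12), and its neighbour SAMD9 by 0.76. HERC6, a HECT-domain ligase, fell from 5.37, 6.54 and 6.49 CPM to 2.48, 2.14 and 2.59 CPM (-1.36 ± 0.13; edgeR adjusted p = 6.51e-12).
IFI44, a cytoplasmic protein with a GTP-binding motif, measured 30.0, 32.3 and 28.7 CPM at the low and 15.2, 14.2 and 15.5 CPM at the high dose (-1.03 ± 0.07; edgeR adjusted p = 1.51e-15). Its paralogue IFI44L fell by 0.86 (32.3, 31.3 and 29.1 CPM to 15.0, 16.4 and 20.0 CPM), XAF1 by 0.99 (17.9, 18.1 and 17.6 CPM to 8.11, 9.23 and 9.71 CPM), and IFI35 by 0.75. OASL went from 8.95, 9.33 and 8.05 CPM to 4.21, 3.82 and 5.49 CPM (-0.97 ± 0.18), and OAS1, OAS2 and OAS3 fell by 1.33, 0.84 and 0.52. CMPK2, a mitochondrial nucleotide kinase, fell by 1.41 from a mean of 0.547 CPM; it overlaps RSAD2 on the opposite strand.

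RIGI fell from 13.1, 12.1 and 11.4 CPM to 7.09, 5.81 and 7.63 CPM with Schisandrae (-0.84 ± 0.10; edgeR adjusted p = 2.65e-09) and IFIH1 by 0.44, while DDX60 was not called (-0.14). The transcription factors went the other way or stayed near 0. STAT2 rose from 40.4, 42.4 and 40.7 CPM to 52.4, 52.7 and 49.2 CPM (0.32 ± 0.06; edgeR adjusted p = 4.59e-05), with no overlap. IRF7 rose by 0.38 ± 0.15 (edgeR adjusted p = 0.0274), a call lost in 4 of the 6 fits that left out a library: high-dose replicate 1 (adjusted p = 0.053), high-dose replicate 2 (0.0841), low-dose replicate 1 (0.0845) and low-dose replicate 3 (0.101). IRF1 (-0.10; edgeR adjusted p = 0.205) and IRF9 (-0.11; edgeR adjusted p = 0.42) were not called.
ISG15 went from 20.6, 18.96 and 18.1 CPM to 11.3, 15.1 and 14.5 CPM (-0.50 ± 0.15; edgeR adjusted p = 0.00565), and without high-dose replicate 1, the lowest library, the adjusted p was 0.0515. The deISGylase USP18 fell by 0.55 and the ISG15 ligase HERC5 by 0.65. MX1 and MX2 fell by 0.49 and 0.74. PARP9, an ADP-ribosyltransferase family member, fell from 12.6, 12.6 and 13.0 CPM to 7.57, 7.30 and 7.38 CPM, whereas its overlapping partner DTX3L was not called (-0.06). TRIM21, a cytosolic antibody receptor, fell by 0.44, TRIM22 by 0.42 and UBE2L6 by 0.18. The 8 members not called besides IRF1 and IRF9 were IFI6 (0.25), DDX60, BST2, EIF2AK2, ISG20, IFI27, DTX3L and PARP14. EIF2AK2, the double-stranded RNA-dependent kinase PKR, had 107, 111 and 111 CPM at the low and 115, 103 and 103 CPM at the high dose.

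Other cell-type markers moved in the same libraries. With high-dose Schisandrae PTPRC fell by 2.25, SLC1A3 by 1.26 and CSF1R by 1.08, while CD68 rose by 0.36 and the summed myeloid list, of which 3 of 8 markers passed the filter, went from 210 to 220 CPM at the low dose to 258 to 267 CPM at the high dose. The summed neuronal markers went from 51.5 to 55 CPM at the low dose to 23.2 to 27.8 CPM at the high dose, and the oligodendroglial sum from 5.25 to 6.12 CPM to 9.45 to 9.99 CPM. The summed lymphoid markers did not exceed 0.102 CPM. High-dose libraries held 29.66 M to 32.57 M counts and low-dose libraries 20.71 M to 26.07 M. The part of these in the fall was not tested.

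Against Liriopis, which shared the library set but had other doses (500 and 20 µg/mL), the Schisandrae change was lower in 23 members and higher in 1 (STAT2, difference 0.32), with 37% of all tested genes called. OAS1 (-1.70), IFIT1 (-1.64) and HERC6 (-1.42) differed most. Liriopis itself gave 0 calls at the high dose, where 1 member and 348 genes had an unadjusted p under 0.05, and DESeq2 called 0 members. IFIT1 in Liriopis measured 10.4, 10.4 and 13.3 CPM at the low and 10.7, 10.7 and 11.1 CPM at the high dose.

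Zizyphi Semen lowered 9 members at the high dose, all of moderate size. The members were XAF1 (-0.50), IFIT1 (-0.50), IFIH1 (-0.49), SAMD9L (-0.44), IFIT3 (-0.33), RIGI (-0.33), IFI44L (-0.30), IFI44 (-0.26) and STAT2 (-0.20). In 17 of 39 members every high-dose library lay below every low-dose library, against 11.7% of all tested genes.
IFIT1 measured 13.2, 11.3 and 10.8 CPM at the low, 9.44, 10.4 and 10.6 CPM at the medium and 8.67, 8.43 and 7.96 CPM at the high dose, with each group below the one before it (high against low -0.50 ± 0.11; edgeR adjusted p = 0.00342). XAF1 measured 21.0, 22.8 and 18.6 CPM at the low and 16.8, 11.6 and 15.2 CPM at the high dose (-0.50 ± 0.13; edgeR adjusted p = 0.01). STAT2 went from 40.7, 44.3 and 42.6 CPM to 36.0, 39.2 and 36.0 CPM, a separation of the groups with an edgeR adjusted p of 0.0499. IRF1 (-0.05), IRF7 (-0.40), IRF9 (-0.31), ISG15 (-0.27) and IFI6 (-0.23) were not called. CSF1R was the 1 marker that changed with Zizyphi (-0.49); its part was not tested.
The number of calls depended on single libraries: it was 1 without high-dose replicate 2, 3 without high-dose replicate 3 or low-dose replicate 2, 5 without low-dose replicate 1 or 3, and 6 without high-dose replicate 1. IFIT1 passed in all of these fits (adjusted p 0.00407 to 0.0471), and XAF1 was lost without high-dose replicate 2 (0.146) or low-dose replicate 2 (0.0657). In a fit of the 6 libraries alone 1 member passed.

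Longan Arillus gave 0 calls at the high dose, although 13 members had an unadjusted p under 0.05 (1690 of all genes did) and DESeq2 called 0. In 12 members every high-dose library lay above every low-dose library, against 7.75% of all tested genes. IFIT2 measured 7.07, 7.07 and 5.44 CPM at the low and 12.3, 9.80 and 7.65 CPM at the high dose (0.59 ± 0.19; edgeR adjusted p = 0.118), and OAS1 0.615, 0.481 and 0.626 CPM against 2.17, 0.811 and 0.988 CPM (1.19 ± 0.34; edgeR adjusted p = 0.0714). In both genes high-dose replicate 1 was the highest library. Without high-dose replicate 2, 1 member passed. Of the factors, IRF9 was 0.32 (edgeR adjusted p = 0.172) and IRF1 0.20 (edgeR adjusted p = 0.137).
At equal doses and in one library set, the high-against-low change was larger with Longan than with Zizyphi in 8 members and smaller in 0, with 5.03% of all tested genes called. These were OAS1 (difference 1.60), IFIT2 (0.98), OASL (0.87), IRF9 (0.62), IFIT1 (0.55), IFIT3 (0.49), IFI44 (0.45) and PARP9 (0.42). The number was 2 without Longan high-dose replicate 1, 3 without Longan low-dose replicate 3 or Zizyphi high-dose replicate 2, 4 without Zizyphi high-dose replicate 3, and 5 without Longan low-dose replicate 1 or Zizyphi low-dose replicate 2.

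The medium doses, 5 times the low dose, gave 0 called members in each of the 6 extracts, both in edgeR and in DESeq2. The share of all genes called was 0.0268% for Yijin-tang, 0.0134% for Soshiho-tang, 0.0468% for Schisandrae and 0% for Liriopis, Longan and Zizyphi. An unadjusted p under 0.05 was reached by 3 members in Yijin-tang (OASL, ISG15 and IRF1, all higher), 1 in Soshiho-tang, 1 in Liriopis, 6 in Schisandrae, 2 in Longan and 2 in Zizyphi. Over all tested genes the share at that threshold was 5.11%, 2.27%, 8.05%, 4.76%, 5.81% and 3.83% in the same order, so that only the Schisandrae number lies well above its share. The 6 in Schisandrae were SAMD9L, IFIT1, IFI44, RIGI, OAS2 and HERC6, with log2 fold changes of -0.29, -0.27, -0.17, -0.24, -0.41 and -0.25, and 31 of 39 members were negative there. In the median over members per library, the medium-dose Schisandrae libraries lay at -0.13 to -0.05, below its low-dose libraries at 0.01 to 0.05 and above its high-dose libraries at -0.61 to -0.44.

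**Figure D3:**
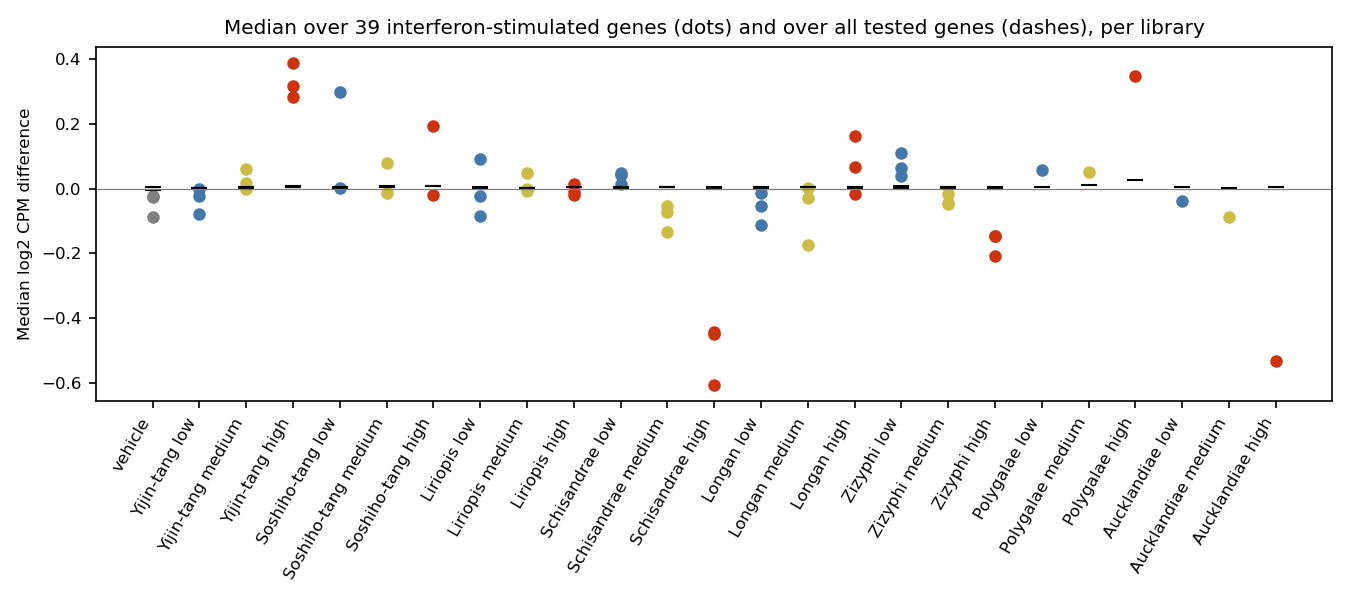
Median over the 39 tested members of the log2 CPM difference from the centre of the low-dose and vehicle libraries, 1 dot per library, for all 60 libraries (grey vehicle, blue low, yellow medium, red high dose); dashes give the same median over all tested genes, which stays within -0.01 and 0.03. High-dose Yijin-tang libraries lie at 0.28 to 0.39, high-dose Schisandrae at -0.61 to -0.44, and the single high-dose libraries of Polygalae and Aucklandiae at 0.35 and -0.53.

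Polygalae Radix and Aucklandiae Radix had 1 library a dose, so these values carry no replicate check and no test. They were set against the mean of the 3 vehicle libraries, which belong to another library set, and a member is counted where it differed at least 2-fold and lay outside the vehicle range. Of all tested genes 20.5% did so for high-dose Polygalae, 2.6% for medium and 3.22% for low, and 16.8%, 4.8% and 1.86% for Aucklandiae.
In the high-dose Polygalae library 10 members were counted as higher and 1 as lower, and the median over members was 0.44. IFIT2 stood at 54.9 CPM, against 7.80, 4.81 and 6.18 CPM in vehicle and 8.08 and 14.4 CPM in the low and medium library, which is 3.14 above vehicle on the log2 scale. IFIT3 stood at 29.4, 43.5 and 67.4 CPM from the low to the high library and at 22.8, 18.68 and 20.0 CPM in vehicle, and IFIT2 and IFIT3 were the 2 members counted at the medium dose (1.22 and 1.09).
CMPK2 exceeded 1 CPM in 3 libraries only, of which this is 1, so it entered the tests through the library in which it is counted here. CMPK2 (1.85), OASL (1.65), OAS1 (1.58), MX1 (1.24), IFIT1 (1.17), IRF1 (1.16), XAF1 (1.13) and IRF9 (1.07) were the other members counted as higher, and DDX60 (-1.19) was lower. ISG15 went against these, with 11.5 CPM against 16.9 to 21.4 CPM in vehicle. So did BST2, at 29.9 CPM against 52.9 to 56.8 CPM, and IFI35, at 10.8 CPM against 19.7 to 21.3 CPM. In this library 27 members lay above and 10 below the vehicle range, beside 45.4% and 43.4% of all tested genes. RSAD2 (viperin), which makes an antiviral nucleotide, reached 1.77 CPM, from 55 counts, against 0.198 to 0.379 CPM in vehicle. The low VIM and COL1A1 of this library, given above, stand beside these values, and their part was not tested.

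In the high-dose Aucklandiae library 12 members were counted as lower and 0 as higher, with a median of -0.57. OAS3 stood at 16.6, 10.5 and 4.69 CPM from the low to the high library, against 22.8, 23.1 and 24.4 CPM in vehicle, which is -2.30 for the high library and -1.16 for the medium library, the 1 count at that dose. IFI44L stood at 31.2, 23.0 and 6.65 CPM (-2.26), against 31.0, 32.2 and 33.6 CPM in vehicle. TRIM22, a RING-type restriction factor, stood at 0.962 CPM against 4.05 to 4.91 CPM in vehicle (-2.11).
MX2 (-1.65), SAMD9L (-1.59), DDX60 (-1.31), PARP9 (-1.20), IFIT1 (-1.19), MX1 (-1.15), OAS2 (-1.12), DTX3L (-1.08) and IFIH1 (-1.01) made up the rest. IFIT2 (6.21 CPM) and ISG15 (20.2 CPM) lay within the vehicle range. In this library 8 members lay above and 26 below the vehicle range, beside 44.9% and 43.1% of all tested genes. Among those above were IRF7, at 8.66 CPM against 3.95 to 4.64 CPM in vehicle, and IFI35, at 26.9 CPM against 19.7 to 21.3 CPM. COL1A1 was 1016 CPM in this library, while VIM, at 5441 CPM, was above vehicle; their part was not tested. The low-dose libraries of both extracts gave 0 counted members.

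**Figure D4:**
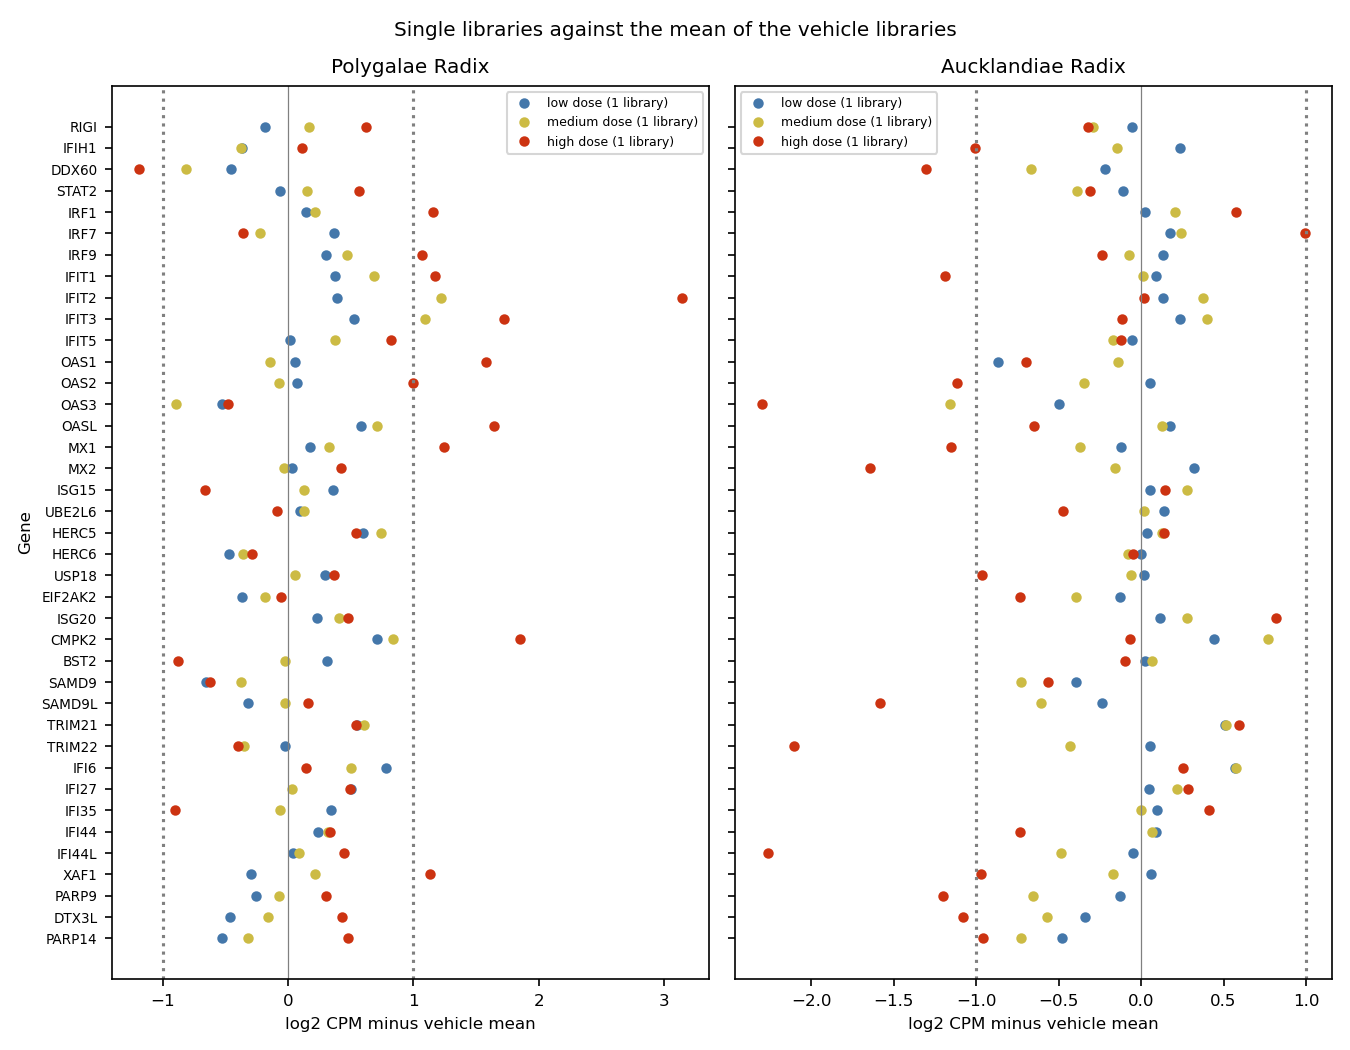
Log2 CPM minus the vehicle mean of the 39 tested members (rows) in the single low (blue), medium (yellow) and high (red) libraries of Polygalae Radix and Aucklandiae Radix; dotted lines mark a 2-fold difference. IFIT2 in high-dose Polygalae (3.14) and OAS3 in high-dose Aucklandiae (-2.30) lie farthest from 0.

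The rest of the pathway was followed through gene lists. IFNE, the 1 ligand gene tested, fell with high-dose Schisandrae by 0.60 on the log2 scale. Its change there was also called lower than with Liriopis (difference -0.66). At the high dose of the other replicated extracts IFNE was not called, and its part in the fall of the members was not tested. Of the 6 receptor chains, IFNAR2 (0.20) and IFNGR1 (0.19) rose with Yijin-tang, IFNGR1 rose with Soshiho-tang (0.22), and IFNAR1 fell with Schisandrae, from a mean of 93.6 to 68.7 CPM (-0.45 ± 0.05; edgeR adjusted p = 1.38e-09). Among 11 genes of JAK-STAT signalling and its inhibitors, 2 rose and 2 fell with Schisandrae, where the inhibitor SOCS1 fell by 0.81 and PIAS1 by 0.34. With Soshiho-tang 1 rose and 2 fell, with SOCS3 at -0.55 and STAT3 at -0.25.
Of 12 tested sensing genes 4 rose and 5 fell with Schisandrae. TLR3, the endosomal receptor for double-stranded RNA, fell by 1.51 and the kinase IKBKE by 1.26, while DHX58 rose by 0.76. CGAS was the 1 sensing gene that rose with Yijin-tang (0.39).
Counts in these lists are to be read against the shares of all tested genes called. These were 8.79% for Yijin-tang, 22.5% for Soshiho-tang, 52.4% for Schisandrae and 7.31% for Zizyphi. With both directions joined, the counts of the JAK-STAT list and of the other interferon-response genes lie near or below these shares. So do those of the sensing list outside Schisandrae, and those of the receptors and the antigen presentation list outside Yijin-tang. By direction, 4 of 33 other interferon-response genes rose with Yijin-tang, beside 4.48% of all tested genes, and 3 fell with Zizyphi, beside 4.86%. Both counts lie above these 1-direction shares, and this was not tested. Of 33 other interferon-response genes, 4 rose and 0 fell with Yijin-tang (EPSTI1 0.47, APOL1 0.45), 6 rose and 3 fell with Soshiho-tang, 4 rose and 9 fell with Schisandrae, and 0 rose and 3 fell with Zizyphi. Their medians, 0.12, 0.00, -0.04 and -0.03, were nearer 0 than those of the 39 members. Of 23 tested genes of antigen presentation and interferon gamma response, 10 rose and 0 fell with Yijin-tang, among them the adhesion molecule ICAM1 (1.78), GBP4 (0.69) and HLA-F (0.45). The lists overlap, so their counts are not separate: ICAM1 is also in the NF-kB list. IFI16, IRF3 and TRIM25 are in both the sensing list and that of the other interferon-response genes. With Schisandrae 9 rose and 3 fell, with HLA-E at 0.42, the GTPase GBP1 at -0.78 and the class II transactivator CIITA at -0.41. Of the 19 tested NF-kB genes 11 rose and 5 fell with Schisandrae (median 0.30), and the chemokine CXCL8 rose by 3.07 there and by 3.82 with Yijin-tang.

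**Figure D5:**
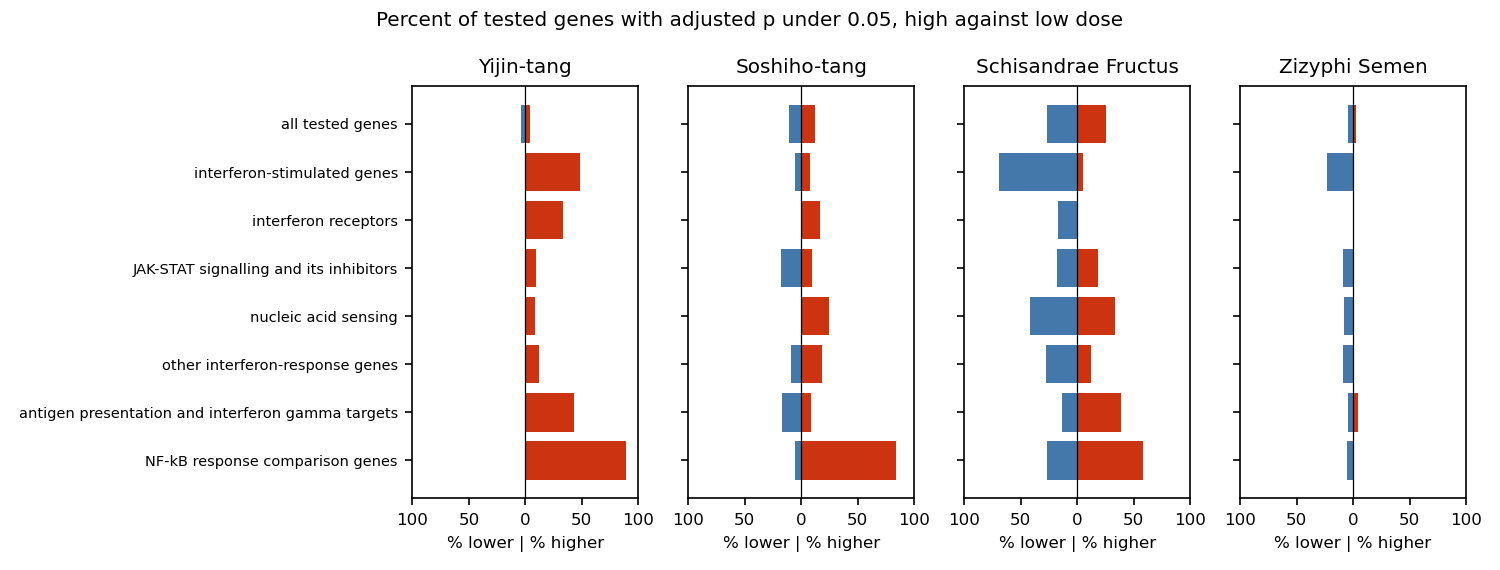
Percent of tested genes that passed edgeR's adjusted p under 0.05 in the higher (red, right) or lower (blue, left) direction at the high against the low dose, for all tested genes, the 39 members and 6 gene lists, in 4 extracts. The members' bar points right for Yijin-tang (19 of 39) and left for Schisandrae (27) and Zizyphi (9), while the NF-kB list points right for both decoctions (17 and 16 of 19).

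Calls in different extracts rest on separate low-dose libraries, so their members can be set side by side. Of all 39 members 27 fell with Schisandrae. Of the 19 members that rose with Yijin-tang, 12 (63.2%) were among these 27 (44.4% of them), a share no higher than that of the whole list. Of the 9 that fell with Zizyphi, 8 (88.9%) fell with Schisandrae as well (29.6% of the 27), and STAT2 rose there. That share is above the 27 of 39 in the whole list, but it rests on 9 members and the difference was not tested. IRF1 was the 1 member called in the same direction with both decoctions.
Members with and without an ISRE match in the promoter window were called. With Yijin-tang 9 of 20 tested members with a match and 6 of 12 without one rose, and with Schisandrae 12 of 20 with a match (median -0.44) and 9 of 12 without one (median -0.81) fell. The absence of a match says only that these letters are not in this window.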

How the data were processed

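RNA from 60 libraries of SW1783 cells was sequenced on an MGI platform with a directional kit, per the labels' protocols. The authors' tools were FastQC 0.11.9, Trim Galore 0.6.5, STAR 2.7.3a and RSEM 1.3.3, with hg38, per the submitters' processing notes; for annotation release and strand setting, nothing was found in the labels or headers. The deposited values are RSEM expected counts per gene (10.86% not whole), rounded here. Libraries held 18.73 M to 35.52 M counts.

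Genes above 1 CPM in at least 3 libraries were tested (14948) with edgeR 4.0.16 in R 4.3.3: TMM scaling, quasi-likelihood F test on the 54 libraries of 19 replicated groups (35 residual degrees of freedom), Benjamini-Hochberg adjustment, threshold 0.05. SE is the absolute log2 fold change divided by the root of F. CPM are TMM-scaled; single libraries used log2 CPM with prior count 2. Members, gene lists, markers and tests were chosen with earlier results of these data known. Members named in full were up to 10 per comparison with the largest change among those called, at 5 CPM or more in a group and with libraries of the 2 groups not overlapping, plus IRF1, IRF7, IRF9, STAT2, RIGI, ISG15 and IFI6, up to 3 called genes per pathway list by size and up to 5 members per single library; others were chosen after their values were seen. Replicate pairs were compared for duplicates (51 pairs, chi-square per degree of freedom 2.3 to 58.97; none counted as 1). The fits were tested on simulated data. Alternatives included DESeq2 1.42.0, its size factors, other filters and prior counts, vehicle as reference, the replicate block and leaving out each library. Other cell treatments named in the design text were not analysed here.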

Additional observations from a re-analysis of the deposited data

Results flagged for a closer look

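The response to the high against the low dose differed between extracts of 1 library set by a test of the difference itself. Between Yijin-tang and Soshiho-tang it differed for 11 members, among them OAS1 (1.77), OAS2 (1.14), IFIT1 (0.98), IFI6 (0.90), RIGI (0.56) and IRF9 (0.53), with 11.7% of all tested genes called; without Soshiho-tang low-dose replicate 2 the number was 1 and without Soshiho-tang high-dose replicate 2 it was 4. Between Longan and Zizyphi it differed for 8 members, among them OAS1 (1.60), IFIT2 (0.98), OASL (0.87) and IRF9 (0.62), with 5.03% of all genes called; without Longan high-dose replicate 1 the number was 2, and without other single libraries it was 3 to 10. Between Schisandrae and Liriopis it differed for 24 members, among them OAS1 (-1.70), IFIT1 (-1.64), HERC6 (-1.42), RIGI (-0.73) and STAT2 (0.32), with 37% of all genes called and doses that differ. Values are differences of log2 fold changes in the order named, from edgeR's quasi-likelihood test.

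IFIT1 and MX1 lay more than 2-fold from vehicle in opposite directions in single libraries: 1.17 and 1.24 in high-dose Polygalae, and -1.19 and -1.15 in high-dose Aucklandiae. This difference was not tested, since each dose has 1 library. RSAD2, outside the tests because of its low counts, reached 1.77 CPM in the high-dose Polygalae library, above all 3 vehicle libraries.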

How the results depend on the processing

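The high-dose counts of 19 (Yijin-tang), 5 (Soshiho-tang) and 29 (Schisandrae) members stayed within 1.5 times under DESeq2, its size factors, edgeR's default filter, no filter, the replicate block and fits of the compared libraries alone. With no filter on low counts, 1 member passed for medium-dose Yijin-tang, 6 for high-dose Longan and 13 for Longan minus Zizyphi. With vehicle as reference the counts were 4, 3, 1, 6 and 3 for the medium doses of Yijin-tang, Liriopis, Schisandrae, Longan and Zizyphi. The shares of all genes called were 18.1, 16.7, 7.19, 31.4 and 18.4%. High-dose Soshiho-tang gave 11 calls (9 higher, 2 lower), Liriopis 1 and Longan 7, all higher, beside shares of 36.2, 5.56 and 19.6%. The Soshiho-tang median over members was 0.12 there, against -0.04 with the low dose as reference. High-dose Zizyphi again gave 9 calls (3 higher, 6 lower), beside a share of 16.8%, with a median of -0.10. Of these, 3 were among its 9 calls against the low dose. For Yijin-tang 15 of the 19 calls were shared, for Soshiho-tang 4 of 5 and for Schisandrae 25 of 29. IRF7 with Soshiho-tang (0.44) and IFI6 with Zizyphi (0.50) then changed sign. In fits of the compared libraries alone, 1 member passed for Zizyphi and 5 for Longan minus Zizyphi. Against the low-dose library, 0 members were counted for medium-dose Polygalae and 0 for medium-dose Aucklandiae. Why these changed was not tested.

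Leaving out 1 library gave 13 to 19 members for Yijin-tang, 3 to 5 for Soshiho-tang, 25 to 29 for Schisandrae, 0 to 1 for Longan, 1 to 6 for Zizyphi, 1 to 14 for Yijin-tang minus Soshiho-tang, 2 to 10 for Longan minus Zizyphi and 20 to 26 for Schisandrae minus Liriopis. In these fits an arm left with 1 sample is assumed to vary like the other groups. In the high-dose comparisons the shared replicate numbers did not pair the samples: correlations of deviations with the low-dose libraries ran from -0.114 to 0.348 over high and medium doses, and were all over 0.1 for medium-dose Liriopis alone, where 0 members passed with and without the block. With the replicate block 22, 5, 29 and 6 members passed for Yijin-tang, Soshiho-tang, Schisandrae and Zizyphi, and all calls it made for the last were among the 9. Crossing the numbers of the Soshiho-tang medium libraries, added after seeing the data, gave 0 calls. Members with a low-dose median under 1 CPM (OAS1, ISG20, CMPK2, RSAD2) rest on few counts.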
